A study of Mus musculus with 12 samples.

Results

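Gdf15 and 9 further genes of the transforming growth factor beta (TGF-beta) superfamily were followed by RNA sequencing in a mouse pancreatic stellate cell line, PSC4, and a mouse pancreatic cancer cell line, KPC4. The 10 genes were taken by name: the ligand genes Gdf15, Tgfb1, Tgfb2, Tgfb3, Inhba, Inhbb, Bmp2 and Bmp4, and the secreted antagonists Fst and Grem1. They are 10 of the 17335 genes with counts in at least 1 line. In each line 9 of them were tested. Bmp2 was not analysed in PSC4 and Inhbb was not analysed in KPC4, and 8 could be compared between the lines.

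The study passed culture medium from cell to cell, with 3 libraries in each of 4 groups. In the initial step KPC4 cells received 10 µM gemcitabine, a nucleoside analogue that blocks DNA synthesis, or vehicle for 6 h. They were washed and then conditioned starvation medium for 14 h. The media are called Gem-SU and Control-SU, and PSC4 cells were kept in one or the other for 24 h. In the following step PSC4 cells received the same media for 6 h, were washed and conditioned fresh starvation medium for 18 h. That second medium is Gem-PSC-SU or Control-PSC-SU, and KPC4 cells were kept in it for 24 h. No recipient cell was itself given the drug, all recipients were in conditioned starvation medium, and the controls received medium that had passed through the same cells. Both lines were grown in medium with serum before use, and their genotypes are not given in the labels. The labels call the replicates biological without saying whether each medium was made separately, so the p-values measure the spread between these libraries.

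Ligands of the TGF-beta superfamily are secreted as dimers that bring together type I and type II receptor kinases at the cell surface. The TGF-beta and activin branches act mainly through SMAD2 and SMAD3, and the BMP (bone morphogenetic protein) branch through SMAD1, SMAD5 and SMAD9. Follistatin (Fst) binds and neutralises activins, and gremlin 1 (Grem1) binds BMPs. GDF15 is a divergent member made by many stressed cells, and it signals through GFRAL and the receptor kinase RET on hindbrain neurons to reduce appetite. In the pancreas TGF-beta and activin are known to drive stellate cells towards matrix-producing myofibroblasts.

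Libraries held 29559400 to 38138400 counts in PSC4 and 26354300 to 34744200 in KPC4. Levels are given as CPM, counts scaled to each library's total over the genes tested, after TMM normalization within the line. They are the mean ± SD of 3 libraries unless single libraries are listed. In PSC4, 9 of 10 stellate and fibroblast markers had a row, and their summed level was 8126 to 8685 CPM in controls and 2430 to 3633 CPM with Gem-SU. Of these markers 8 fell and Des did not pass the test (2.84 CPM ± 0.152 in controls). Pdgfra, a receptor gene among these markers, went from 1258 CPM ± 138 to 127 CPM ± 36.2 (n = 3 each). The 6 epithelial markers with a row in PSC4 summed to 3.54 to 6.09 CPM in controls and 10.2 to 14.9 CPM with Gem-SU, and Epcam and Cdh1 were not analysed there. The 4 immune markers with a row summed to 19.6 to 27.7 CPM in controls and 13.6 to 15.9 CPM with Gem-SU, and the 4 endothelial markers to 0.609 to 1.43 and 2.70 to 4.85 CPM. In KPC4 the 9 epithelial markers with a row summed to 5986 to 7424 CPM in controls and 6017 to 7478 CPM with Gem-PSC-SU. There the 5 stellate markers with a row summed to 2417 to 2806 CPM and 1847 to 2208 CPM, most of it Vim (vimentin), which tumour lines also express. The KPC4 immune markers (4 with a row) summed to 63.2 to 78.2 and 31.9 to 53.3 CPM, and the 2 endothelial ones to 0.663 to 1.41 and 1.10 to 3.72 CPM. Most of the immune sum was Cd14 in both lines. Its mean was 17.7 CPM in control PSC4 and 9.55 CPM with Gem-SU. With all 12 libraries scaled together, its mean was 71.3 CPM in control KPC4 and 44.5 CPM with Gem-PSC-SU. In bulk RNA, fewer cells of a type and less RNA per cell cannot be told apart.

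The promoters of 3 members are printed because their genes showed the largest rise and the opposed activin changes described next. Each is the 250 bases before a start site, 5′ to 3′ on the gene's strand, from RefSeq on GRCm38.p6. Gdf15 has 2 annotated starts, at chr8:70632457-70632706 (minus strand, start A) and chr8:70632096-70632345 (minus strand, start B). The Inhba window is chr13:16011601-16011850 (plus strand) and the Inhbb window chr1:119422249-119422498 (minus strand). Capitals mark CAGAC, the letters of the SMAD box, on either strand (GTCTG where it lies on the other strand) or TATAAA, those of the TATA box. Both were marked by their letters alone, whatever their distance from the start.
Gdf15 promoter, start A: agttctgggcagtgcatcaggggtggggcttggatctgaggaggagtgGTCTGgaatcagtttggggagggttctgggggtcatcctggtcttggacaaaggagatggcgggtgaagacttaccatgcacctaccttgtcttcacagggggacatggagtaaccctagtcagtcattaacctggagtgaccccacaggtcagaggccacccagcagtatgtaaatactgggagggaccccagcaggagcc
Gdf15 promoter, start B: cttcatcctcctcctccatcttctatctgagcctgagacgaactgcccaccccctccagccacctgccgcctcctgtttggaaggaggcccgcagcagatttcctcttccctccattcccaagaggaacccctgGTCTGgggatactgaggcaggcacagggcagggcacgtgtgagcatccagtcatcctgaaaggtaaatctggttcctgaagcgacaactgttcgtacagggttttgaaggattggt
Inhba promoter: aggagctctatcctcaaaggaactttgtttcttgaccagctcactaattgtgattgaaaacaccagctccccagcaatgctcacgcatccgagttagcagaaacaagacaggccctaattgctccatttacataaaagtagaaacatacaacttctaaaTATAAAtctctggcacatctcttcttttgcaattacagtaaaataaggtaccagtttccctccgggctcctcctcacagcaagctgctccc
Inhbb promoter: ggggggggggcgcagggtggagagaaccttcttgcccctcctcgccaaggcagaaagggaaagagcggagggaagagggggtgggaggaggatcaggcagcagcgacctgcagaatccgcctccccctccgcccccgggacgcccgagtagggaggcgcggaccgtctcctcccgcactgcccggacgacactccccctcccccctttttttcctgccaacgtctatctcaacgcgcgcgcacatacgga

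Each Gdf15 window held 1 CAGAC, at position -202 from start A and -116 from start B, and CAGAC occurred in 42.2% of all 32851 promoters of that length. The Inhba window held TATAAA at -91, which 12.4% of promoters contain, and its GC content was 43.2%. The Inhbb window held none of the motifs searched and its GC content was 68.0%, against a median of 52.4% over all promoters. Searched on both strands were also TGANTCA (AP-1, in 6.75% of promoters), TGACGTCA (CRE, 1.55%), TGATGNAA (the ATF4 composite element, 3.45%) and the p53 decamer by its name (7.13%). None of these last 4 was in any window of the 7 members that had an entry, which says only that these letters are not within those bases. Tgfb3, Bmp2 and Fst had no entry.

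In PSC4 the medium of gemcitabine-treated cancer cells changed most of these genes, in both directions. Gdf15, Inhba and Fst rose, and Inhbb, Grem1, Bmp4 and Tgfb3 fell, while Tgfb1 and Tgfb2 did not pass the test. The 7 called members of 9 stand beside 46.3% of all 13347 genes tested in PSC4 (24.3% called higher and 22% called lower; edgeR's quasi-likelihood test, Benjamini-Hochberg adjusted p under 0.05). In the same 7 members the Gem-SU and Control-SU libraries did not overlap, as in 56.4% of all genes (29.3% higher and 27.1% lower with Gem-SU). The median log2 fold change of the 9 members was -0.32, and that of all genes -0.0032.

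In KPC4, which received the medium of PSC4 cells instead, 0 of 9 members and 0 of 13236 genes (0%) passed edgeR's quasi-likelihood test. At an unadjusted p under 0.05 it gave 2251 genes (17%), and DESeq2 called 822 genes. Same-numbered KPC4 libraries departed from their group means together (r of 0.211 to 0.436), so the replicate number was also fitted as a block. With that block 1171 genes (8.85%) passed, 6.07% higher and 2.78% lower, and among them were 2 members, Gdf15 and Fst, both higher with Gem-PSC-SU. These 2 were also the members whose groups did not overlap in KPC4, against 22.8% of all genes (11.8% higher and 10.9% lower). The median log2 fold change of the 9 members was 0.45, beside -0.02 over all genes. Of the 9 members 5 had their highest level of all 6 libraries in Gem-PSC-SU replicate 2: Gdf15, Tgfb2, Inhba, Bmp2 and Fst.

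**Figure D1:**
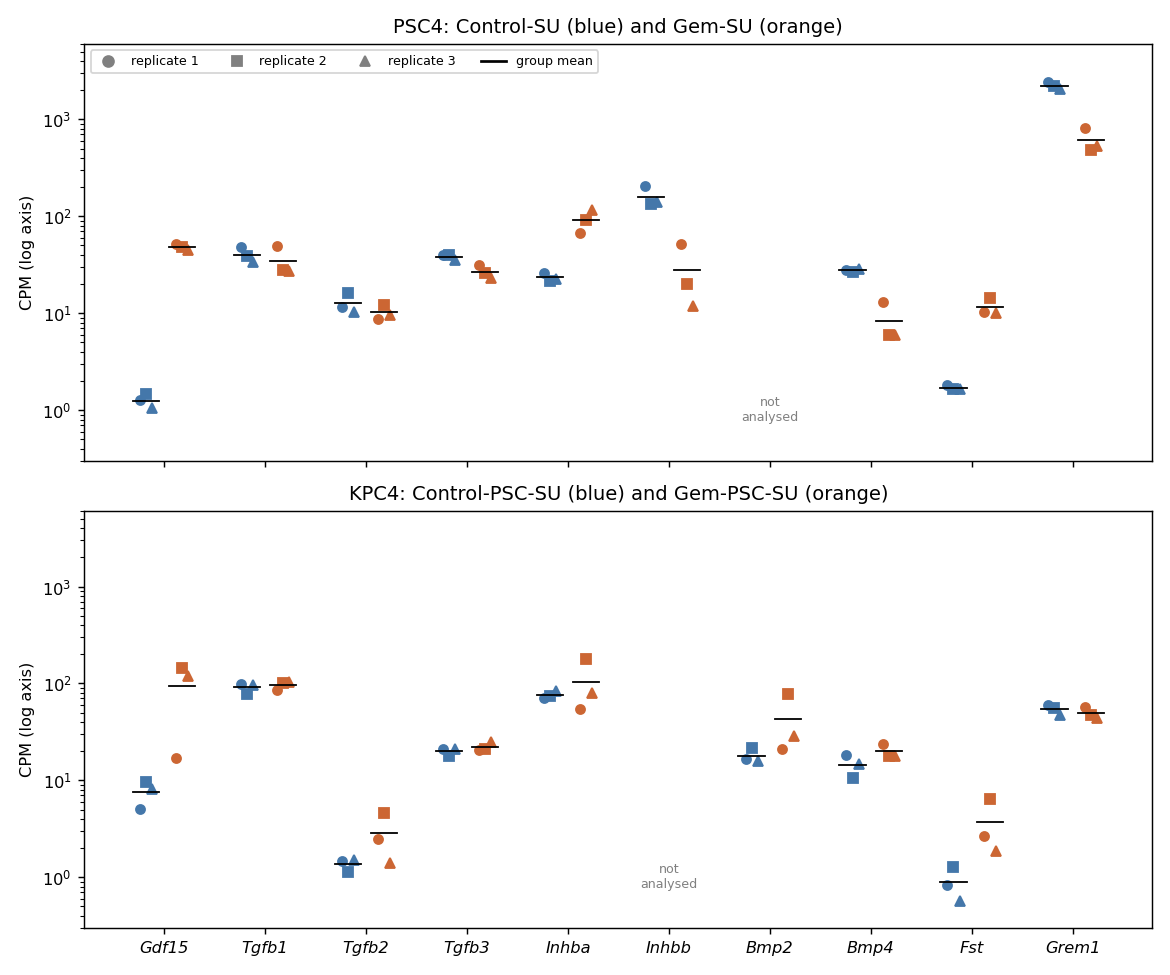
Level of the 10 genes in each of the 12 libraries (y axis, CPM on a log scale; blue, control medium; orange, Gem medium; circle, square and triangle, replicates 1, 2 and 3; bar, group mean of 3). Gdf15 in PSC4 sits at 1.04 to 1.45 CPM in controls and 44.7 to 52.3 CPM with Gem-SU, whereas in KPC4 the Gem-PSC-SU libraries spread from 17.1 to 144 CPM.

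Gdf15 (ENSMUSG00000038508) was the member with the largest fold change in PSC4. It measured 1.28, 1.45 and 1.04 CPM in Control-SU replicates 1 to 3 and 52.3, 48.2 and 44.7 CPM with Gem-SU. The groups lay far apart and the Gem-SU libraries close together: these levels rest on 32 to 46 counts per control library and 1318 to 2013 counts with Gem-SU. The log2 fold change was 5.26 (SE 0.21, edgeR adjusted p = 1.45e-05), a 38.4-fold rise. Per kb of exon, Gdf15 stood eighth of the 9 members in control PSC4 (0.678 CPM per kb ± 0.112), where its range overlapped that of Fst. With Gem-SU it stood second (26.1 CPM per kb ± 2.07), below Grem1 and above every other member by range.

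In KPC4 Gdf15 measured 5.04, 9.52 and 8.07 CPM with Control-PSC-SU and 17.1, 144 and 120 CPM with Gem-PSC-SU. All 3 Gem libraries lay above the controls, with replicate 1 far below the other two. Its log2 fold change was 3.63 (SE 0.69, edgeR adjusted p = 0.112), and with the block it was 3.24 (edgeR adjusted p = 0.0304). Without Gem-PSC-SU replicate 1 it was 4.13 (edgeR adjusted p = 4.08e-04). Per kb it was the highest of the 9 members by mean in that group (50.5 CPM per kb ± 36.3), but its range overlapped that of Tgfb1.

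RET, the signalling part of the GDF15 receptor complex, belongs to the receptor genes described further on. In PSC4 its control libraries held at most 2 counts each, under the floor of 3 counts per library, and the Gem-SU libraries 40 to 61 counts (1.40 CPM ± 0.192). Against the floor, Ret was at least 15.1-fold higher. GFRAL was not analysed here.

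The genes whose pattern was most like that of Gdf15 were taken by Pearson's r of log2 CPM over the 12 libraries, each centred on its line's mean, among 10762 genes. They were Slc25a25 (r = 0.993), a mitochondrial nucleotide carrier, Plk3 (r = 0.992), a stress-responsive polo-like kinase, Ier2 (r = 0.991), an immediate early gene, Areg (r = 0.991), the EGF receptor ligand amphiregulin, and Fosl1 (r = 0.991), an AP-1 subunit. All points share their libraries with Gdf15, so these values are descriptions. Slc25a25 went from 9.32 CPM ± 1.28 to 146 CPM ± 17.8 in PSC4 and from 9.68 CPM ± 2.41 to 94.9 CPM ± 69.7 in KPC4 (n = 3 per group). Its lowest Gem library in KPC4 was again Gem-PSC-SU replicate 1, at 25.0 CPM. Among the other members compared, Fst was most like Gdf15 (r = 0.916), but it ranked only 538 of the 10762 genes. Inhba followed (r = 0.859, rank 1092), and Grem1 was least like Gdf15 (r = -0.838, rank 9762). Inhbb and Bmp2, each analysed in 1 line only, were not compared.

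The 3 TGF-beta ligand genes moved less. Tgfb1 (ENSMUSG00000002603), the isoform best known in fibrosis, measured 47.8, 38.8 and 34.0 CPM in control PSC4 and 49.0, 28.0 and 27.5 CPM with Gem-SU. The groups overlapped, because Gem-SU replicate 1 was the highest of all 6 libraries. Tgfb1 had a log2 fold change of -0.20 (SE 0.25, edgeR adjusted p = 0.533), and without that library -0.53 (edgeR adjusted p = 0.0437). In KPC4 Tgfb1 was at 97.7, 78.5 and 96.8 CPM in controls and 85.0, 101 and 102 CPM with Gem-PSC-SU, again overlapping. Its log2 fold change there was 0.08 (SE 0.18, edgeR adjusted p = 0.845).

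Tgfb3 (ENSMUSG00000021253), a further isoform, fell in PSC4, where it measured 40.1, 39.5 and 35.1 CPM in controls and 31.7, 26.0 and 22.9 CPM with Gem-SU. The groups did not overlap, and the log2 fold change was -0.51 (SE 0.17, edgeR adjusted p = 0.0372). That call was lost when any single PSC4 library other than Gem-SU replicate 1 was left out (edgeR adjusted p of 0.0511 to 0.134 over Control-SU replicates 1, 2 and 3 and Gem-SU replicates 2 and 3). In KPC4 Tgfb3 measured 18.0 to 21.1 CPM in controls and 20.4 to 25.0 CPM with Gem-PSC-SU, with a log2 fold change of 0.14 (SE 0.20).

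Tgfb2 (ENSMUSG00000039239) measured 11.7, 16.3 and 10.3 CPM in control PSC4 and 8.81, 12.3 and 9.66 CPM with Gem-SU, overlapping groups with a log2 fold change of -0.32 (SE 0.24, edgeR adjusted p = 0.307). In KPC4 it was near the bottom of the range, at 1.13 to 1.51 CPM in controls and at 2.49, 4.62 and 1.39 CPM with Gem-PSC-SU. The log2 fold change of 1.05 (SE 0.49) did not pass (edgeR adjusted p = 0.316), and Gem-PSC-SU replicate 3 lay within the controls. Both genes share exon bases with genes on the opposite strand (Tgfb3 257 bases with Gm48008 and 163 with Gm37804, Tgfb2 124 with Gm29491). Whether counting used strand is not given in the sources used here, so reads in those bases are uncertain. The same holds for Bmp4 (89 bases, with Gm15217) and Fst (115 bases, with Gm47040).

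The activin subunit genes moved in opposite directions in PSC4. Inhba (ENSMUSG00000041324) encodes the beta A chain, 2 of which form activin A, and Inhbb (ENSMUSG00000037035) the beta B chain of activin B. Inhba measured 26.3, 21.6 and 22.6 CPM in controls and 67.7, 90.8 and 116 CPM with Gem-SU. Every Gem-SU library lay above every control, and the log2 fold change was 1.96 (SE 0.21, edgeR adjusted p = 2.67e-04), a 3.89-fold rise. Inhbb measured 206, 132 and 142 CPM in controls and 51.3, 20.2 and 11.9 CPM with Gem-SU. Its Gem-SU libraries all lay below the controls but differed among themselves, and it fell by 2.52 on the log2 scale (SE 0.48, edgeR adjusted p = 0.00335), a level 5.74-fold lower. Without Gem-SU replicate 1, its highest Gem-SU library, Inhbb fell by 3.31 on the log2 scale.

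Per kb of exon, the ratio of Inhba to Inhbb was 0.0851, 0.109 and 0.106 in Control-SU replicates 1 to 3 and 0.879, 2.99 and 6.48 in Gem-SU replicates 1 to 3. Inhbb was thus the higher transcript in every control library and in Gem-SU replicate 1, and Inhba in Gem-SU replicates 2 and 3. These ratios compare transcripts and not the secreted dimers.

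**Figure D2:**
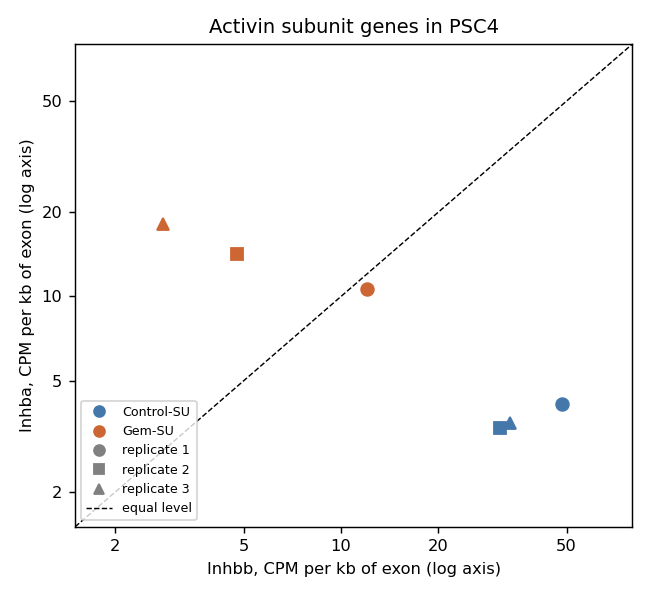
Inhba (y axis) against Inhbb (x axis) in the 6 PSC4 libraries, both as CPM per kb of exon on log axes (blue, Control-SU; orange, Gem-SU; symbols, replicates; dashed line, equal levels). The controls lie below the line at ratios of 0.0851 to 0.109, and the Gem-SU libraries reach from 0.879 to 6.48.

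Fst (ENSMUSG00000021765), the activin antagonist, rose together with Inhba in PSC4. It measured 1.83, 1.64 and 1.66 CPM in controls and 10.3, 14.5 and 10.0 CPM with Gem-SU. The control libraries differed little from each other and the groups did not overlap. Fst rose by 2.76 on the log2 scale (SE 0.25, edgeR adjusted p = 1.23e-04), or 6.77-fold.

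In KPC4 Fst measured 0.836, 1.27 and 0.569 CPM in controls and 2.67, 6.48 and 1.88 CPM with Gem-PSC-SU, groups that did not overlap. Its log2 fold change was 2.04 (SE 0.56, edgeR adjusted p = 0.157), and with the block 1.93 (edgeR adjusted p = 0.0228). Inhba measured 71.3, 74.0 and 83.1 CPM in control KPC4 and 54.3, 177 and 79.0 CPM with Gem-PSC-SU. Only replicate 2 of the Gem-PSC-SU libraries lay above the controls. The log2 fold change of Inhba was 0.44 (SE 0.38, edgeR adjusted p = 0.572), and without Gem-PSC-SU replicate 2 it was -0.19.

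Among the BMP genes, Bmp4 (ENSMUSG00000021835), a ligand of the SMAD1 and SMAD5 branch, fell in PSC4. It measured 27.8, 26.7 and 28.8 CPM in controls and 13.2, 5.89 and 5.93 CPM with Gem-SU. The controls lay within a narrow range, and Gem-SU replicate 1 was above the other Gem-SU libraries but below all controls. Bmp4 fell by 1.73 on the log2 scale (SE 0.32, edgeR adjusted p = 0.00282), to a level 3.32-fold lower.

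Grem1 (ENSMUSG00000074934), the BMP antagonist, was the member with the highest level in PSC4 and also fell. It measured 2446, 2208 and 2045 CPM in controls and 814, 479 and 527 CPM with Gem-SU, well apart from each other. Grem1 fell by 1.88 on the log2 scale (SE 0.24, edgeR adjusted p = 5.45e-04), to a level 3.68-fold lower. Even so it stayed the highest of the 9 members per kb, at 538 CPM per kb ± 48.7 in controls and 146 CPM per kb ± 43.7 with Gem-SU. Per kb, the ratio of Grem1 to Bmp4 was 43.8, 41.1 and 35.4 in Control-SU replicates 1 to 3 and 30.7, 40.5 and 44.2 with Gem-SU, so the ratios overlapped while both genes fell.

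All 4 members that fell in PSC4 had their highest Gem-SU level in replicate 1, and the summed stellate markers did too (3633 CPM against 2799 and 2430 CPM). The stellate markers fell in the same libraries as Inhbb, Grem1, Bmp4 and Tgfb3, and their part in these falls was not tested. The epithelial and endothelial marker sums given above were higher in the Gem-SU libraries in which Gdf15, Inhba and Fst were higher, and their part was not tested either. The epithelial sum was mostly Krt19 (mean 2.95 CPM in controls and 7.64 CPM with Gem-SU) and Krt7 (1.51 and 3.26 CPM). Krt8 (0.517 and 0.655 CPM) and Krt18 (0.182 and 0.212 CPM) changed little. Cldn7 and Elf3 had at most 4 counts in any PSC4 library.

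In KPC4, Bmp4 measured 18.4, 10.5 and 14.6 CPM in controls and 23.9, 17.7 and 18.0 CPM with Gem-PSC-SU (log2 fold change 0.45, SE 0.26, edgeR adjusted p = 0.403). Grem1 measured 60.5, 55.2 and 46.8 CPM in controls and 57.1, 47.0 and 43.7 CPM with Gem-PSC-SU (log2 fold change -0.14, SE 0.19, edgeR adjusted p = 0.737). In both genes the groups overlapped. Bmp2 (ENSMUSG00000027358), a ligand close to BMP4, measured 16.5, 21.7 and 15.7 CPM in controls and 20.9, 78.0 and 28.7 CPM with Gem-PSC-SU. Its groups overlapped at Gem-PSC-SU replicate 1, and replicate 2 stood far above the rest. The log2 fold change of Bmp2 was 1.25 (SE 0.45, edgeR adjusted p = 0.224, with the block 0.0628), and without Gem-PSC-SU replicate 1 it was 1.57 (edgeR adjusted p = 0.0453).

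**Figure D3:**
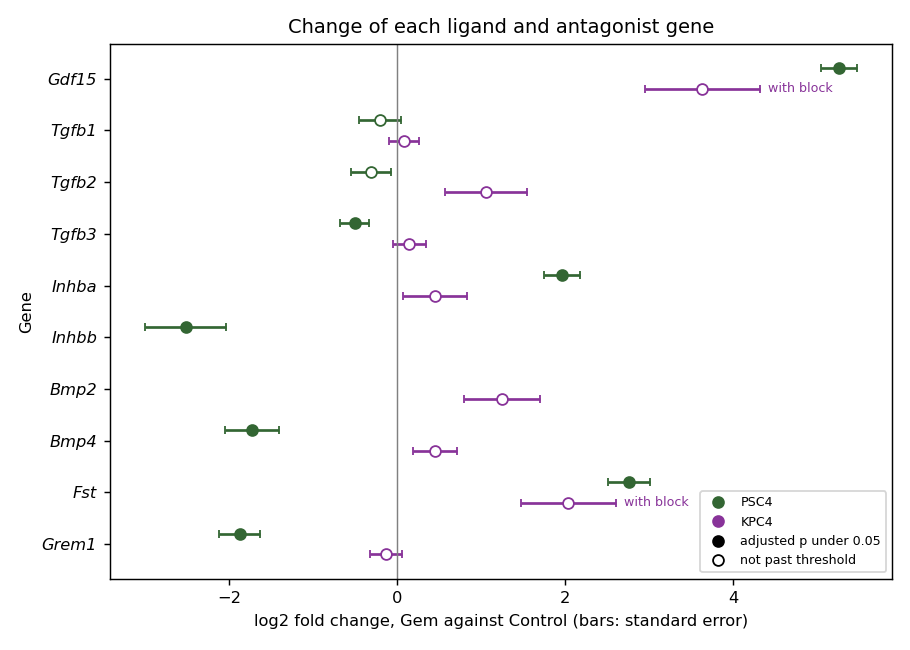
Log2 fold change of each gene, Gem against control medium (x axis; bars, standard error; green, PSC4; purple, KPC4; filled, adjusted p under 0.05; "with block" marks KPC4 genes past the threshold when the replicate number is fitted). Gdf15 stands at 5.26 in PSC4 and 3.63 in KPC4, and Grem1 at -1.88 and -0.14.

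The effect of the Gem medium was compared between the lines in a fit of all 12 libraries, in which 9.85% of 13632 genes differed and 5.1% had the lower value in PSC4. With the replicate block 21.9% differed. Of the 8 members with counts in both lines 2 passed that test. Bmp4 differed by -2.24 (PSC4 minus KPC4, log2 scale, SE 0.44, edgeR adjusted p = 0.00777) and Grem1 by -1.80 (SE 0.30, edgeR adjusted p = 0.00315). Both were lower with the Gem medium in PSC4, while the KPC4 values of the same fit were 0.46 and -0.13. Gdf15, although higher in both lines, did not pass (difference 1.59, SE 0.75, edgeR adjusted p = 0.205), nor did Fst (0.69, SE 0.61, edgeR adjusted p = 0.516). Inhba differed by 1.48 (SE 0.47, edgeR adjusted p = 0.0627). Leaving out Gem-PSC-SU replicate 2 gave 2.08 for Inhba (edgeR adjusted p = 0.00199). The lines stood at different steps of the transfer and received different media, so line, step and medium cannot be told apart.

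The control groups of the lines also differed in level, each after 24 h in its own control medium. Line, step of the transfer and medium cannot be told apart in this comparison either. Between the control groups 7 of the 8 members passed the test, and 42.9% of all 13632 genes did (22.3% higher and 20.6% lower in PSC4). Grem1 was 41.0-fold higher in PSC4 than in KPC4 (2256 CPM ± 207 against 55.1 CPM ± 7.29, edgeR adjusted p = 2.86e-09). Tgfb2 was 9.26-fold higher in PSC4 (edgeR adjusted p = 1.50e-05), and Tgfb3 and Bmp4 were each 1.90-fold higher. The Bmp4 call was lost when any of Control-SU replicates 1, 2 or 3 or Control-PSC-SU replicates 2 or 3 was left out (edgeR adjusted p of at least 0.0566). Fst, at 1.89-fold, did not pass (edgeR adjusted p = 0.114).

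KPC4 held the higher level of the other 3. Gdf15 was 6.03-fold lower in PSC4 than in KPC4 controls (1.27 CPM ± 0.201 against 7.67 CPM ± 2.35, edgeR adjusted p = 0.00234), Inhba was 3.25-fold lower and Tgfb1 2.28-fold lower. Per kb the order in control PSC4 was Grem1, Inhbb, Tgfb1, Bmp4, Tgfb3, Inhba, Tgfb2, Gdf15 and Fst, and only Gdf15 and Fst, as neighbours, overlapped in range. In control KPC4 the order was Tgfb1 (41.8 CPM per kb ± 5.00), Grem1, Inhba, Bmp4, Tgfb3, Bmp2, Gdf15, Fst and Tgfb2. There Tgfb1 stood apart from Grem1, and the neighbours overlapped except between Inhba and Bmp4 and between Gdf15 and Fst.

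Further genes of the pathway were followed in 7 lists. Counts are beside those of all genes in PSC4 (24.3% called higher and 22% called lower, median -0.0032). Of 25 other ligand genes, 12 had a row in PSC4 and 4 had enough counts to be tested, and 0 of these 4 passed edgeR's test. At an unadjusted p under 0.05 it gave 0 of the 4, and DESeq2 called 1 lower. Gdf11, a ligand close to myostatin and the highest of the 4 per kb, measured 35.3 CPM ± 5.60 in controls and 36.5 CPM ± 3.19 with Gem-SU. The list median was -0.46.

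Of 11 other antagonist genes tested in PSC4, 1 rose and 3 fell (median -0.26). Decorin (Dcn), a matrix proteoglycan that binds TGF-beta, fell by 1.96 on the log2 scale, and it is also on the stellate marker list. Chrdl1 and Fstl1 fell by 1.41 and 0.45. The Chrdl1 call was lost without Control-SU replicate 1 or Gem-SU replicates 2 or 3, and the Fstl1 call without any PSC4 library except Gem-SU replicate 1 (edgeR adjusted p up to 0.157).

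Among 9 tested genes for latency and activation of TGF-beta, 1 rose and 2 fell (median -0.36). Ltbp2, a matrix protein of the latent TGF-beta binding family, went from 105 CPM ± 16.8 to 221 CPM ± 37.2 (log2 fold change 1.08, SE 0.18, edgeR adjusted p = 0.00195). Lrrc32, the cell-surface anchor GARP for latent TGF-beta, measured 56.1 to 71.2 CPM in controls and 18.2 to 29.8 CPM with Gem-SU (log2 fold change -1.44, SE 0.22). Ltbp4 fell by 0.78 on the log2 scale, a call lost without Control-SU replicate 1 or Gem-SU replicates 2 or 3.

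Of 14 receptor genes tested in PSC4, 4 rose and 5 fell (median -0.23). Betaglycan (Tgfbr3), a co-receptor that presents TGF-beta2 and binds inhibin, measured 475, 584 and 524 CPM in controls and 163, 130 and 150 CPM with Gem-SU, and fell by 1.83 on the log2 scale (SE 0.17, edgeR adjusted p = 1.23e-04). The type II receptor Tgfbr2 fell by 1.03 (218 CPM ± 15.9 to 107 CPM ± 14.0) and the activin type I receptor Acvr1b also fell by 1.03. Ret rose, as given above. The remaining calls, named after their values were seen, were Tgfbr1 (0.51), Acvr2a (0.64) and Acvrl1 (1.36) higher and Bmpr1a (-0.88) and Eng (-0.80) lower on the log2 scale. Eng passed narrowly (edgeR adjusted p = 0.0493) and did not pass with the block (0.0629). Acvrl1 rested on 19 to 35 counts per control library (edgeR adjusted p = 0.0328).

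Among the 13 SMADs and their regulators 3 rose and 3 fell in PSC4 (median -0.14). Smad7, the inhibitory SMAD induced by TGF-beta, measured 7.80, 4.45 and 7.38 CPM in controls and 46.6, 46.9 and 35.8 CPM with Gem-SU, groups that lay far apart (log2 fold change 2.72, SE 0.25, edgeR adjusted p = 1.30e-04). Skil, the co-repressor SnoN, rose by 1.15 and Smad1 by 0.57 on the log2 scale. Smad5 fell by 0.87, and Smad6 and Tgif1, named after their values were seen, by 0.95 and 0.40. Tgif1 passed narrowly (edgeR adjusted p = 0.0494), and Smad6 had an edgeR adjusted p of 0.0285.

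Genes known as TGF-beta responses moved both ways in PSC4: of 13 tested 3 rose and 5 fell (median -0.09). Tagln (transgelin, a contractile protein) rose by 3.25 and Ccn2 (connective tissue growth factor) by 2.43 on the log2 scale. Tgfbi, a matrix protein named for its induction by TGF-beta, went the other way, from 349 CPM ± 54.8 to 45.2 CPM ± 18.3 (log2 fold change -2.95, SE 0.29, edgeR adjusted p = 1.70e-04). Also lower, and named after their values were seen, were Postn (-1.95), Bhlhe40 (-1.54), Pmepa1 (-1.24) and Col1a1 (-0.97), the last also a stellate marker.

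Of 8 BMP response genes tested, 4 rose and 0 fell by edgeR's test (median 1.12). DESeq2 called 5 higher and 0 lower, and 1 was lower at an unadjusted p under 0.05. They were Id1, Id2 and Id4, inhibitors of helix-loop-helix transcription factors, and the homeobox gene Msx2. Id4 went from 0.674 CPM ± 0.291 to 9.76 CPM ± 1.61 (log2 fold change 3.85, SE 0.35, edgeR adjusted p = 1.27e-04). Id1 measured 4.44, 2.56 and 3.54 CPM in controls and 14.8, 7.87 and 7.18 CPM with Gem-SU (edgeR adjusted p = 0.00789). Id2 rose by 1.60 and Msx2 by 2.27 on the log2 scale. Msx2 was low, with 8 to 18 counts per control library and 60 to 86 with Gem-SU. These genes rose in the libraries in which the ligand gene Bmp4 and the antagonist gene Grem1 both fell.

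**Figure D4:**
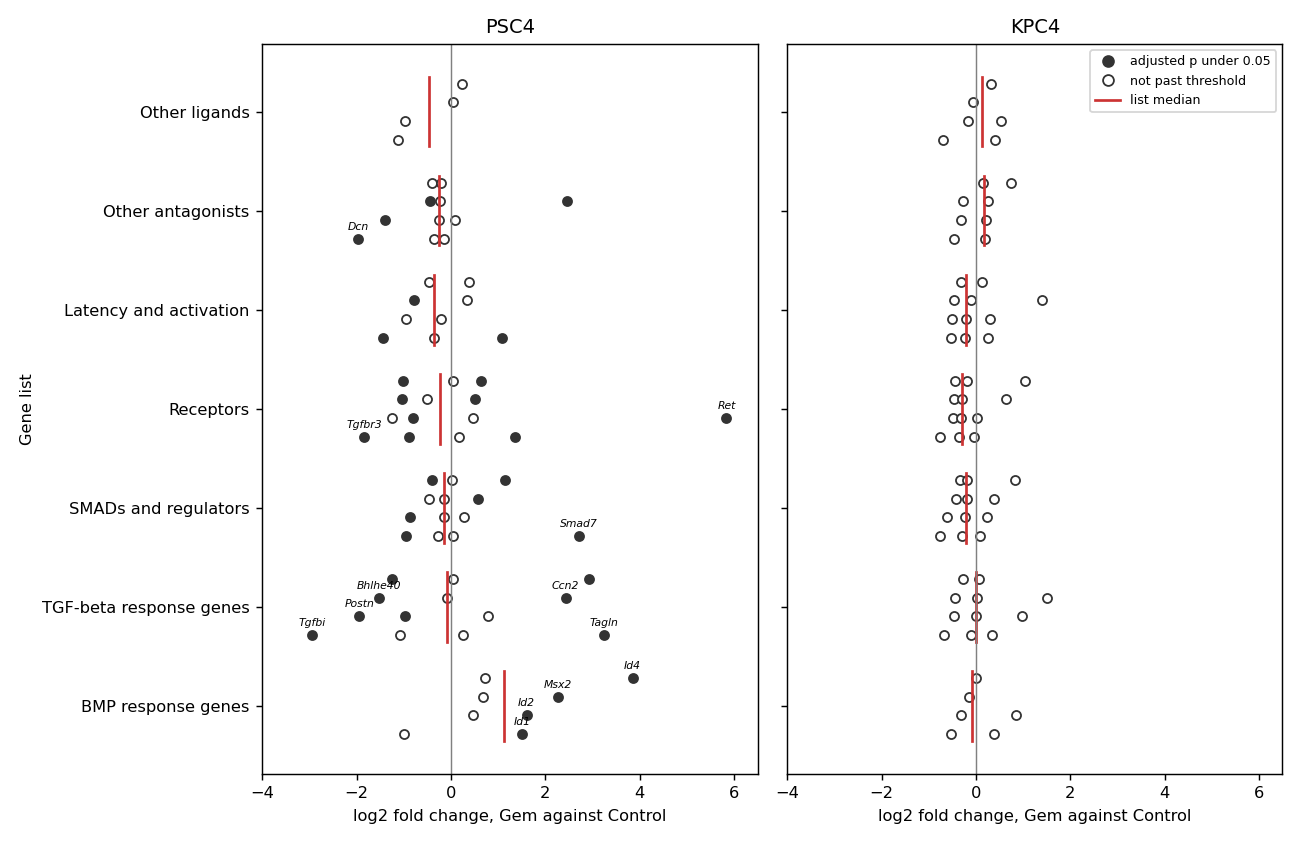
Log2 fold change, Gem against control medium (x axis), of each tested gene of the 7 pathway lists (rows; filled, edgeR adjusted p under 0.05; open, not past it; red bar, list median) in PSC4 and KPC4. In PSC4 the BMP response genes have a median of 1.12 and the other lists lie between -0.46 and -0.09, and in KPC4 no gene is filled.

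In KPC4, 0 of 66 tested genes of the 7 lists passed edgeR's test, beside 0% of all genes. At an unadjusted p under 0.05 it gave 7 of the 66, a smaller share than the 17% of all 13236 genes. DESeq2 called 4 higher and 1 lower, and its count over all KPC4 genes is given above. With the block Smad7 and Itgb6 passed as higher and Smad5 and Pmepa1 as lower, beside 6.07% and 2.78% of all genes. Smad7 measured 18.8, 22.8 and 22.5 CPM in controls and 33.6, 42.5 and 38.4 CPM with Gem-PSC-SU, which do not overlap (log2 fold change 0.84, SE 0.19, edgeR adjusted p = 0.124, with the block 0.0183). Itgb6, an integrin subunit that activates latent TGF-beta, measured 2.05, 1.36 and 1.11 CPM in controls and 3.56, 4.84 and 3.65 CPM with Gem-PSC-SU (log2 fold change 1.41, edgeR adjusted p = 0.149, with the block 0.0457). The BMP response genes had a median of -0.07 over 6 tested genes in KPC4.

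Of the 68 list genes tested in the fit of all 12 libraries, 12 (17.6%) passed edgeR's test of the difference between lines, beside 9.85% of all 13632 genes. With the replicate block 20 of the 68 passed, beside 21.9% of all genes. Of the 12 without the block, Smad7, Id1, Id2, Id4, Tagln, Ccn2, Ret and Tgfbr1 had the higher log2 change in PSC4, and Tgfbr2, Tgfbr3, Tgfbi and Bhlhe40 the lower one. For Smad7 the difference was 1.83 (SE 0.32, edgeR adjusted p = 0.00375), for Id1 1.97 (SE 0.43, edgeR adjusted p = 0.0139) and for Tgfbr3 -2.52 (SE 0.35, edgeR adjusted p = 0.00110). Some of these genes had few counts per library in KPC4: Tgfbr3 10 to 26, Ret 2 to 25, Id4 8 to 35 and Tagln 32 to 56. Their KPC4 changes therefore rest on few reads.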

How the data were processed

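RNA of 12 cultures was sequenced on a NovaSeq X Plus by a provider, per the labels. The authors deposited raw counts per gene and library for each line as whole numbers. The submitters' processing notes name GRCm39, FastQC, Trim Galore 0.6.10, cutadapt 5.2, Salmon, R 4.5.1 and DESeq2 without role or order. The counts may therefore be rounded estimates, and the annotation and the strand setting are not given in the sources used here. The authors' deposited tables of log2 fold changes and p-values entered no test. Titles gave each sample its group, and no sample column was left out.

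Symbols came from a gene name table that matched 16329 of 16386 PSC4 and 15265 of 15309 KPC4 identifiers. Each line was fitted with edgeR 4.0.16 in R 4.3.3: filterByExpr, TMM scaling, robust quasi-likelihood test, Benjamini-Hochberg adjustment over all genes tested, threshold 0.05. Differences between lines came from a fit of all 12 libraries. CPM per kb used merged exon lengths of a GRCm38 annotation, so lengths may differ slightly from those the authors used. A fold against a group at or under 3 counts per library is a lower bound, which covers counting error only. At these depths replicate spread, not counting error, limits the precision of most genes. Replicates of a group differed by more than sampling noise.

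The members and lists were chosen with earlier results of these data known. The text names all 10 members, the 5 genes most like Gdf15, and some but not all of the 4 genes of lowest p per list and line. Some list genes are counted but their own results are not reported here. Same-numbered KPC4 libraries deviated together (r = 0.351, 0.436 and 0.211), which is the only source of their pairing. In PSC4 they did not throughout (r = 0.428, -0.0548 and 0.102). Alternatives were DESeq2 1.42.0, its size factors, other filters on low counts, the replicate block, a fit of all libraries and leaving out each library. The fits were tested on simulated counts.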

Additional observations from a re-analysis of the deposited data

Results flagged for a closer look

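For 2 members the effect of the Gem medium differed between the lines by the test of the difference itself. Bmp4 differed by -2.24 on the log2 scale (PSC4 minus KPC4, edgeR adjusted p = 0.00777): in the fit of all 12 libraries it went from 28.0 CPM ± 1.23 to 8.15 CPM ± 4.09 in PSC4 and from 14.7 CPM ± 3.99 to 20.3 CPM ± 3.92 in KPC4. It was lower in 3 of 3 Gem-SU libraries than in every control. Grem1 differed by -1.80 (edgeR adjusted p = 0.00315), from 2256 CPM ± 207 to 593 CPM ± 175 in PSC4 and from 55.1 CPM ± 7.29 to 50.3 CPM ± 7.72 in KPC4. It too was lower in 3 of 3 Gem-SU libraries than in every control. Both calls were kept in all 17 alternatives run for them (edgeR or DESeq2 adjusted p up to 0.0255 for Bmp4 and 0.0131 for Grem1). Line, step of the transfer and medium cannot be told apart.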

How the results depend on the processing

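In PSC4 the calls of Gdf15, Inhba, Inhbb, Bmp4, Fst and Grem1 held in every alternative run for them (12, and 11 for Inhbb, which the fit of all libraries leaves out), and 6 to 8 of 9 members were called. Leaving out single libraries gave 4061 to 6826 called genes, the lowest without Gem-SU replicate 2. The samples of PSC4 share only a number: its replicate block gave 7266 called genes and changed no member's call. In KPC4, where 0 genes and 0 members passed, DESeq2 gave 822 genes and 2 members, the replicate block 1171 genes and 2 members, and the fit of all libraries 610 genes and 2 members, in each case Gdf15 and Fst. Leaving out single KPC4 libraries gave 0 to 1129 genes and 0 to 2 members, with 1129 genes and the members Gdf15 and Bmp2 without Gem-PSC-SU replicate 1, 174 genes without Control-PSC-SU replicate 2, and 1 gene without Gem-PSC-SU replicate 2. The values of Tgfb1 (-0.00395 without Control-PSC-SU replicate 2) and Inhba (-0.19 without Gem-PSC-SU replicate 2) changed sign, from values that were not called. Over the libraries left out, Tgfb1 reached 0.158 and Inhba 0.75. Fewer samples entered those fits, and the cause was not tested further. For the difference between lines, 1343 genes and 2 members, DESeq2 gave 2145 and 4, the replicate block 2988 and 5 (21.9% of genes; Gdf15, adjusted p = 0.0392, Inhba and Tgfb3 besides Bmp4 and Grem1), and leaving out single libraries 610 to 1993 and 2 to 4. That fit blocks PSC4 as well, where the pairing did not show, and the cause of these changes was not tested. Inhba and Tgfb3 also passed without Gem-SU replicate 1, and Tgfb2 without Gem-PSC-SU replicate 3. The difference gave 610 genes without Gem-SU replicate 2 and 779 to 828 without replicate 3 of any of the 4 groups. The comparison of the control groups gave 6 to 8 called members in all alternatives, and Fst passed without Gem-PSC-SU replicate 2. Rescaling by DESeq2 size factors moved the median of all genes by under 0.1. With 3 libraries a group, an exact permutation test of a single gene cannot go below p = 0.1, so all calls rest on the spread shared over genes.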

Other observations

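The authors' deposited table gives fold changes that differ from those of the deposited counts for some members, beyond the difference between tools. Over 18 values for the members, DESeq2 run on the deposited counts was within 0.0174 of edgeR on the log2 scale, whereas the authors' deposited table differed from that DESeq2 value by over 0.1 in 8. For Fst in PSC4 the authors' deposited table has 2.31 and the counts gave 2.76 by DESeq2. For Tgfb1 in PSC4 the authors' deposited table has -0.53 (its adjusted p is 0.212) and the counts gave -0.21. For Bmp4 in KPC4 the authors' deposited table has -0.05 and the counts gave 0.47, the only member value with opposite signs. For Gdf15 the authors' deposited table has 5.28 in PSC4 and 3.63 in KPC4, where the counts gave 5.26 and 3.64. In KPC4 the authors' deposited table lists Gdf15 with an adjusted p of 1.09e-07 and Fst with 0.00911. What the authors did between counts and fold changes is not given in the sources used here.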
